A study of Mus musculus with 4 samples.

Results

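The 6 Iroquois homeobox genes of the mouse, Irx1 to Irx6, were followed in RNA-seq libraries of epithelial cells from the tongue. They were taken by gene symbol from 54446 features with an Ensembl gene ID, and each symbol matched 1 gene. The cells came from C57BL/6 mice and were kept in RPMI-1640 with serum. The 4 libraries comprised Control 1 and 2, made from the wild type, as well as libraries 3 and 4, whose cells carry the label of a systemic Otub2 knockout. Otub2 encodes a deubiquitinase of the OTU family. The labels give no age and no deleted part of the gene, and do not say whether a group's libraries are from different animals or cultures. The family was selected on the counts of these same 4 libraries, with its difference between the groups already known. Its differences between the groups are therefore a description, with no test.

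Iroquois proteins are transcription factors with a homeodomain of the TALE class, the class of Meis, Pbx and Tgif proteins. In the mouse the genes lie in 2 clusters of 3, and the genes of a cluster often share parts of their expression pattern in the embryo. They are known for setting positional identity in the neural tube, heart, limb and surface epithelia.

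Irx1, Irx2 and Irx4 form the cluster on chromosome 13, and Irx3, Irx5 and Irx6 the cluster on chromosome 8. Coordinates are those of GENCODE mouse release 21 (GRCm38), in which all 6 are protein coding. Irx1 (ENSMUSG00000060969) lies at 71957921 to 71963723 on the minus strand. Irx2 (ENSMUSG00000001504) lies at 72628820 to 72634198 and Irx4 (ENSMUSG00000021604) at 73260479 to 73269608, both on the plus strand. On chromosome 8, Irx3 (ENSMUSG00000031734) lies at 91798525 to 91802067 on the minus strand. Irx5 (ENSMUSG00000031737) at 92357625 to 92376286 and Irx6 (ENSMUSG00000031738) at 92674288 to 92680956 are on the plus strand. The gaps are wide, at 665 kb between Irx1 and Irx2, 626 kb between Irx2 and Irx4, 556 kb between Irx3 and Irx5, and 298 kb between Irx5 and Irx6.

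The coding sequences are most alike in the homeobox, where a short read can match more than 1 member. The 60-base stretch with the highest summed identity to Irx3 is shown for each gene, from the GENCODE transcripts. It codes for the recognition helix of the homeodomain and the residues before it. Capitals mark the 52 of 60 positions at which all 6 genes have the same base.
Irx1: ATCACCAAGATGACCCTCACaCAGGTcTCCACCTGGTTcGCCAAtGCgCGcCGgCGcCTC
Irx2: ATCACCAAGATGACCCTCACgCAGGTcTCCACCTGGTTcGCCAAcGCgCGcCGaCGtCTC
Irx3: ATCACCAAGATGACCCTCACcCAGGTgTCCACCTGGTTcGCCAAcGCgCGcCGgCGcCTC
Irx4: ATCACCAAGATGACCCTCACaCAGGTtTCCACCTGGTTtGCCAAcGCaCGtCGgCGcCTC
Irx5: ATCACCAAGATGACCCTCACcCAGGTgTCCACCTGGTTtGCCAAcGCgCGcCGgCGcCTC
Irx6: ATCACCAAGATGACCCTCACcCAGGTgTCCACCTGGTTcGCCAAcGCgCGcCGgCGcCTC
Each stretch lies within a single exon, exon 2 in Irx1, Irx2, Irx3 and Irx5, exon 5 in Irx4 and exon 4 in Irx6. It runs from 71960007 to 71960066 in Irx1, from 72630778 to 72630837 in Irx2 and from 73267637 to 73267696 in Irx4. On chromosome 8 it runs from 91800511 to 91800570 in Irx3, from 92359741 to 92359800 in Irx5 and from 92677350 to 92677409 in Irx6. Irx3 and Irx6 are identical over all 60 bases, and Irx4 differs most from Irx3, with 55 bases in common.

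Over whole transcripts, the longest run of identical bases was 88 between Irx3 and Irx6 and 65 between Irx2 and Irx5. Of 15 pairs, 3 shared a run of at least 50 bases and 10 a run of at least 30. How the authors treated reads that match several genes is not given in the sources used here, so a part of the count of each gene in this stretch is uncertain. Irx6 had between 0 and 2 counts in every library, although it is identical to Irx3 there.

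Depth was 12541345 and 11882900 counts in control cells and 23017183 and 19085713 counts in libraries 3 and 4. Otub2 itself had 393 and 367 counts in control cells and 272 and 495 in the others, or 27.5 and 26.9 against 19 and 24 CPM (log2 fold change of -0.34, SE 0.302, and edgeR adjusted p of 0.485). CPM here is the count per 1000000 of a library size scaled by TMM, a factor that sets the bulk of genes level between libraries. Since the headings of the knockout count columns read OE rather than KO, these libraries are called labelled Otub2 knockout throughout. A gene-level count does not check the deletion. The epithelial identity was visible in all 4 libraries. The 17 keratinocyte markers, among them Krt14, Krt5 and Trp63, took 9.37% and 8.78% of gene counts in control cells and 2.51% and 5.69% in libraries 3 and 4. Library 3 stood apart. In it 12 salivary gland markers took 25.4% of gene counts, against 0.00113% to 0.00319% in the other libraries, and 20 cardiomyocyte markers took 1.46%, against 0.00783% to 0.0133%. Of the 5777936 salivary counts in library 3, 5462635 were those of Mucl2. Prol1 and Lpo were also high there, with 294734 and 8330 counts. Muc19 was not, with 53 counts against 51 and 32 in control cells, and Dcpp1, Dcpp2 and Dcpp3 had 0. Values with and without library 3 are therefore given for the Irx genes.

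Irx transcripts together were more abundant in the libraries labelled Otub2 knockout. The 6 genes summed to 302 and 319 counts in control cells and to 1576 and 1598 in libraries 3 and 4. On the TMM scale the sums were 21.1 and 23.4 CPM against 110 and 77.3 CPM. On this scale Irx1, Irx2, Irx3 and Irx4 were at least 2-fold above both controls in both libraries, and on the deposited FPKM, which are scaled to the column total, only Irx1 and Irx4 were. Irx5 was well above the controls in library 3 only, and Irx6 was barely detected anywhere.

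**Figure D1:**
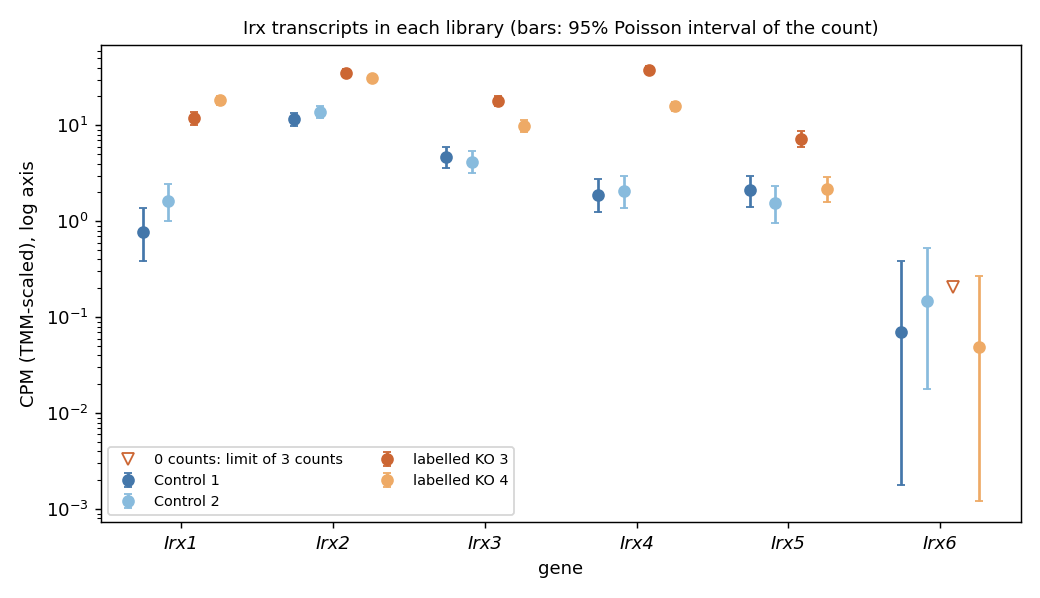
Level of each Irx gene in each library, in TMM-scaled CPM on a log axis; points are single libraries and bars the 95% Poisson interval of the count, which covers counting error only. The open triangle is the limit of 3 counts for the library with 0 counts of Irx6. Both libraries labelled Otub2 knockout lie far above both controls for Irx1 and Irx4, by less for Irx2 and Irx3, and library 4 lies beside the controls for Irx5.

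The chromosome 13 cluster held the largest differences. Irx4, known as a regulator of ventricular identity in the heart, had 27 and 28 counts in control cells, 542 in library 3 and 328 in library 4. This is 1.89 and 2.05 CPM in control cells and 37.8 and 15.9 CPM in the others. The controls lay within 1.09-fold of each other, while library 3 was 2.38-fold above library 4, or 1.37-fold on the deposited FPKM. The lower library labelled Otub2 knockout was still 7.74-fold above the higher control, and 7.29-fold on the deposited FPKM. The edgeR log2 fold change was 3.76 (SE 0.577, n = 2 libraries per group), and 205 of 21916 genes tested had a larger one.

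Irx1, which takes part in patterning of the lung, limb and nervous system, had 11 and 22 counts in control cells, 169 in library 3 and 376 in library 4. The levels were 0.77 and 1.61 CPM against 11.8 and 18.2 CPM. Here library 4 was the higher one, the reverse of Irx4, and the groups did not overlap. The controls differed 2.09-fold, and with 11 counts the interval of Control 1 reached from 0.384 to 1.38 CPM (95% Poisson interval, counting error only). The lower of the libraries labelled Otub2 knockout was 7.32-fold above the higher control on the TMM scale and 3.97-fold on the deposited FPKM. The log2 fold change was 3.65 (SE 0.599), with 221 genes above it.

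Irx2 was the most abundant member in control cells. It had 166 and 189 counts in control cells and 504 and 645 in libraries 3 and 4. The levels were 11.6 and 13.8 CPM against 35.2 and 31.2 CPM. On the TMM scale libraries within a group lay within 1.19-fold of each other, and the closest pair across the groups was 2.25-fold apart. On the deposited FPKM libraries 3 and 4 were 1.54-fold apart and the closest pair across the groups 1.38-fold. The log2 fold change was 1.38 (SE 0.309), smaller than those of its 2 cluster neighbours, and 1897 genes had a larger one.

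In the chromosome 8 cluster Irx3 and Irx5 had log2 fold changes near that of Irx2, and Irx6 was hardly detected. Irx3, a repressor in neural tube patterning that also acts in the cardiac conduction system, had 67 and 57 counts in control cells, 257 in library 3 and 203 in library 4. The levels were 4.69 and 4.17 CPM against 17.9 and 9.82 CPM. The groups did not overlap, and the closest pair across them was 2.1-fold apart, or 1.99-fold on the deposited FPKM. The log2 fold change was 1.64 (SE 0.484). Irx3 is overlapped on the opposite strand by the non-coding gene Irx3os, and without a stated strand setting reads of the 2 genes cannot be told apart in the shared part.

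Irx5, a partner of Irx3 in limb and heart development, had 30 and 21 counts in control cells, 104 in library 3 and 45 in library 4. The levels were 2.1 and 1.54 CPM against 7.26 and 2.18 CPM. Library 4 was 1.04-fold above the higher control, with a Poisson interval of 1.59 to 2.91 CPM that holds the level of Control 1. Library 3 alone stood out, 3.34-fold above library 4, or 1.92-fold on the deposited FPKM. The log2 fold change of 1.37 (SE 0.721) was 0.28 (SE 0.386) without library 3. On the deposited FPKM library 4 lay between the controls at 0.754 against 0.765 and 0.565.

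Irx6, which is known from bipolar neurons of the retina, had 1 and 2 counts in control cells, 0 in library 3 and 1 in library 4. It was the only member that did not pass the filter on low counts. A count of 0 in library 3 allows a level of up to 0.209 CPM (3 counts), so no fold change is given. Irx6 was at or near the detection limit in all 4 libraries.

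Set against all genes, 5 of the 5 tested Irx genes had both libraries labelled Otub2 knockout above both controls, where 26.9% of the 21916 genes tested did, and 33.1% had both below. These shares differ with abundance, as given below. At 2-fold or more above both controls the count was 4 of 5 (background 2.69%), and at 4-fold or more it was 2, Irx1 and Irx4 (background 0.338%). These counts hold on the TMM scale. On the column total, the scale of the deposited FPKM, 2 Irx genes were at least 2-fold above both controls (Irx1 and Irx4, background 1.09%) and 1 at least 4-fold (Irx4, background 0.183%). In library 4 taken alone, 7.89% of genes were at least 2-fold above both controls, among them 4 Irx genes, and 1.21% at least 4-fold, among them 2. In library 3 alone the shares were 15.1% and 5.78%. Without library 3 the log2 fold changes were 3.96 for Irx1, 1.32 for Irx2, 1.17 for Irx3 and 3.03 for Irx4. The 5 genes passed the filter of 0.643 CPM in both controls as well as in both other libraries. The median log2 fold change was 1.64 over these 5 and 0.09 over all genes tested. No gene of the table passed edgeR's quasi-likelihood test at an adjusted p of 0.05 in either direction (background 0%). At an unadjusted p under 0.05 there were 2064 genes higher (9.42%) and 3325 lower (15.2%). DESeq2 called 751 higher and 262 lower, which is 4.36% and 1.52% of the 17242 genes to which it gave an adjusted p. With 1 library labelled Otub2 knockout left out, edgeR called 4359 higher and 5097 lower (without library 3) or 5243 and 2961 (without library 4), where the spread comes from the controls alone.

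The scale of these differences shifts with the size factors, and the background shifts with it. With library size only, 9.17% of all genes were above the controls in both libraries and 43% were below, with upper-quartile factors 10.4% and 48.5%, and with DESeq2 size factors 29% and 31.4%. The median log2 fold change of all genes moved from 0.09 to -0.35 with library size only and to -0.38 with upper-quartile factors. Under these 2 scalings, Irx1, Irx2, Irx3 and Irx4 still exceeded both controls in libraries 3 and 4, and Irx5 did not. A change of size factors shifts all genes nearly alike, so subtracting the median of all genes largely removes it by construction. Relative to that median, Irx4 was at 3.68 with TMM, 3.52 with library size only and 3.67 with upper-quartile factors. Irx1 was at 3.56, 3.64 and 3.57, and Irx2 at 1.30, 1.27 and 1.30. Irx3 was at 1.56, 1.45 and 1.55, and Irx5 at 1.28, 1.07 and 1.27. The background also differs with abundance. On the TMM scale, 33.2% of genes with a mean of 5 to 10 CPM, where Irx1 and Irx3 fall, lay above both controls. Their median was 0.48. For genes of 10 to 50 CPM, where Irx2 and Irx4 fall, the share was 47.3% and the median 0.47. For genes of 2 to 5 CPM, the range of Irx5, the share was 17% and the median -0.03.

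**Figure D2:**
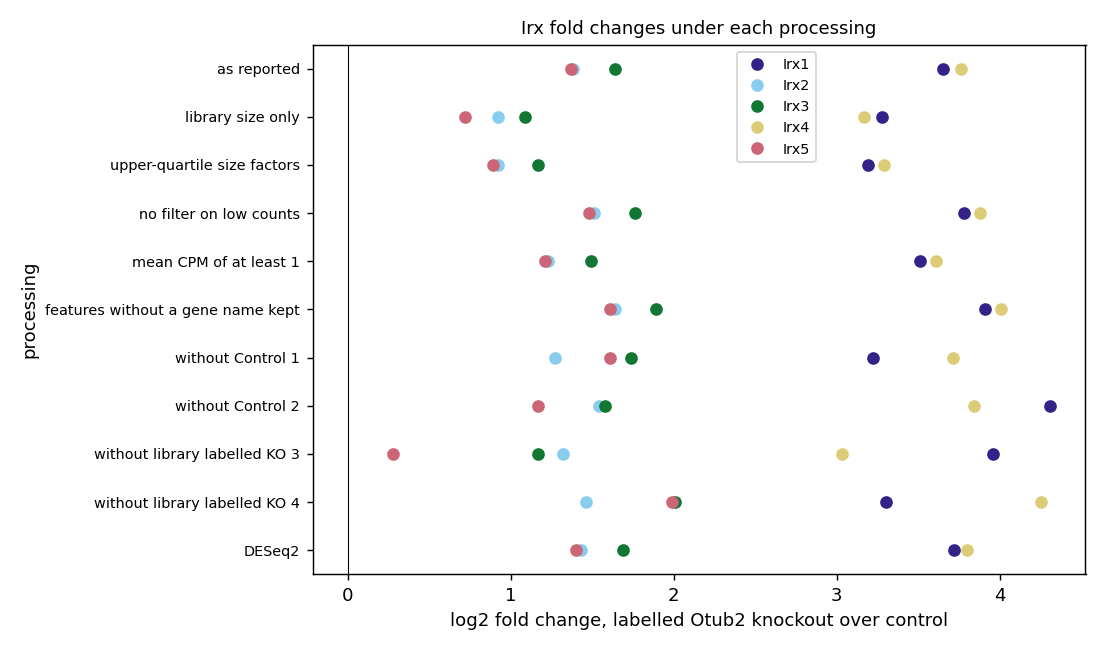
Log2 fold change of the 5 tested Irx genes, libraries labelled Otub2 knockout over controls, as reported and under 10 other processings; each point is 1 fit. Irx1 and Irx4 stay between 3.03 and 4.31, and Irx5 is at 0.28 without library 3.

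Levels of different members can be compared only per length, for which the deposited FPKM were used. In the controls the order was Irx2 (4.03 and 4.85 FPKM), Irx3 (1.93 and 1.74), Irx4 (0.826 and 0.904), then Irx5 (0.765 and 0.565) and Irx1 (0.335 and 0.707), whose ranges overlap, and last Irx6 (0.0237 and 0.0499). In the libraries labelled Otub2 knockout Irx2 (6.67 and 10.3 FPKM), Irx4 (9.03 and 6.59) and Irx1 (2.8 and 7.52) had overlapping ranges, and that of Irx3 (4.04 and 3.85) fell within the range of Irx1. Irx5 (1.44 and 0.754) stayed below them, and Irx6 (0 and 0.0155) remained last. These ranges span libraries scaled to the column total. Within library 3 and within library 4 Irx2 was above Irx1.

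The make-up of the Irx pool differed along with its size. The summed FPKM of the 6 genes was 7.92 and 8.81 in control cells and 24 and 29 in libraries 3 and 4. On the TMM scale library 3 had the higher sum, at 110 CPM against 77.3 CPM in library 4. Irx2 made up 50.9% and 55% of the summed FPKM in control cells, and 27.8% and 35.5% in the others. Irx4 made up 10.4% and 10.3% in control cells, and 37.6% and 22.7% in the others. Irx1 made up 4.23% and 8.02% in control cells, and 11.7% and 25.9% in the others. Ratios between genes of the same library do not depend on the size factor. Irx4 was at 0.205 and 0.187 of the Irx2 level in control cells, at 1.35 in library 3 and at 0.64 in library 4. Irx1 was at 0.083 and 0.146 of Irx2 in control cells and at 0.42 and 0.73 in the others. In contrast, Irx3 was at 0.48 and 0.358 of Irx2 in control cells and at 0.606 and 0.374 in the others, and the 2 groups overlapped. Irx5 was at 0.395 and 0.325 of Irx3 in control cells, at 0.357 in library 3 and at 0.196 in library 4.

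**Figure D3:**
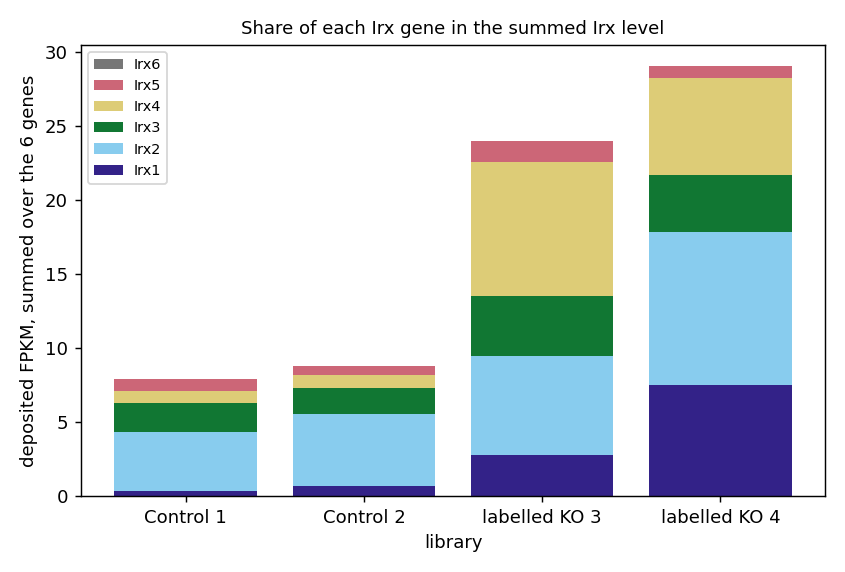
Deposited FPKM of the 6 Irx genes stacked for each library, with bar height the summed level. On the TMM scale the sum of library 3 is above that of library 4. Irx2 makes up 50.9% and 55% of the sum in control cells, while Irx1 and Irx4 fill most of the added height in the libraries labelled Otub2 knockout.

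The proximal promoters of Irx2 and Irx4, 2 members that were higher in both libraries, are shown to give their sequence context. The sequence table matched 3 of 6 members, Irx2, Irx3 and Irx4. The Irx3 window lies within the GENCODE transcript of Irx3 and is not shown. Each window is the 250 bases before the RefSeq start (GRCm38.p6, plus strand), at chr13:72628570-72628819 for Irx2 and chr13:73260247-73260496 for Irx4. The Irx4 window runs past the GENCODE start of Irx4 at 73260479, so its last bases lie within the annotated gene. The motifs searched, 6 in all and on both strands, were the GC box GGGCGG, the CCAAT box, the TATA box TATAAA, the TALE site TGACAG, the TEAD site GGAATG, and ACANNTGT, a palindrome bound by Iroquois proteins. No matches overlap one another in these windows, and capitals mark them.
Irx2: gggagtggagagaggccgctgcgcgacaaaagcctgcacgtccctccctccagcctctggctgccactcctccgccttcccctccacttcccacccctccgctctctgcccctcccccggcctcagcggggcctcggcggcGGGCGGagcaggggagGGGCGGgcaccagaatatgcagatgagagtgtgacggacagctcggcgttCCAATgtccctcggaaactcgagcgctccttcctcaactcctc
Irx4: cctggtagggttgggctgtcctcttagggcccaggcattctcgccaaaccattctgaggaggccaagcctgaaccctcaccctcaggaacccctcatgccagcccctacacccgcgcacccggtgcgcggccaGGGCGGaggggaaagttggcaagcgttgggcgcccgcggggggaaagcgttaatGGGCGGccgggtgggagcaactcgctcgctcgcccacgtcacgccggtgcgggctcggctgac
Both windows are rich in G and C, at 68.4% and 68.8%, against a median of 52.4% over 32851 promoter windows of the same length. Both hold 2 matches to GGGCGG, which 32.7% of all windows hold at least once. Irx2 also holds 1 match to CCAAT, held by 33.8% of windows. Neither window holds TATAAA, which 12.4% of all windows hold, or the TALE site TGACAG, which 15.9% hold. The TEAD site is also absent from both (held by 12.6%), as is ACANNTGT (held by 6.31%).

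To see whether the genes around the clusters differed in the same way, all genes within 1 Mb of an Irx gene were examined. The file holds 117 of them, of which 52 were tested and 33 of these are protein coding. None passed the edgeR test, with a smallest adjusted p of 0.166. At an unadjusted p under 0.05 there were 3 higher and 10 lower (background 9.42% and 15.2%). DESeq2 called 1 higher and 2 lower (background 4.36% and 1.52% of genes with a DESeq2 adjusted p). Both libraries labelled Otub2 knockout lay above both controls for 9 of the 52 (17.3%) and below for 18 (34.6%), against 26.9% and 33.1% of all genes tested. Among the 33 coding neighbours 7 lay above and 9 below. The shares over all genes differ with abundance and were not matched to that of the neighbours. The median log2 fold change was 0.07 over the 52 and 0.36 over the 33.

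**Figure D4:**
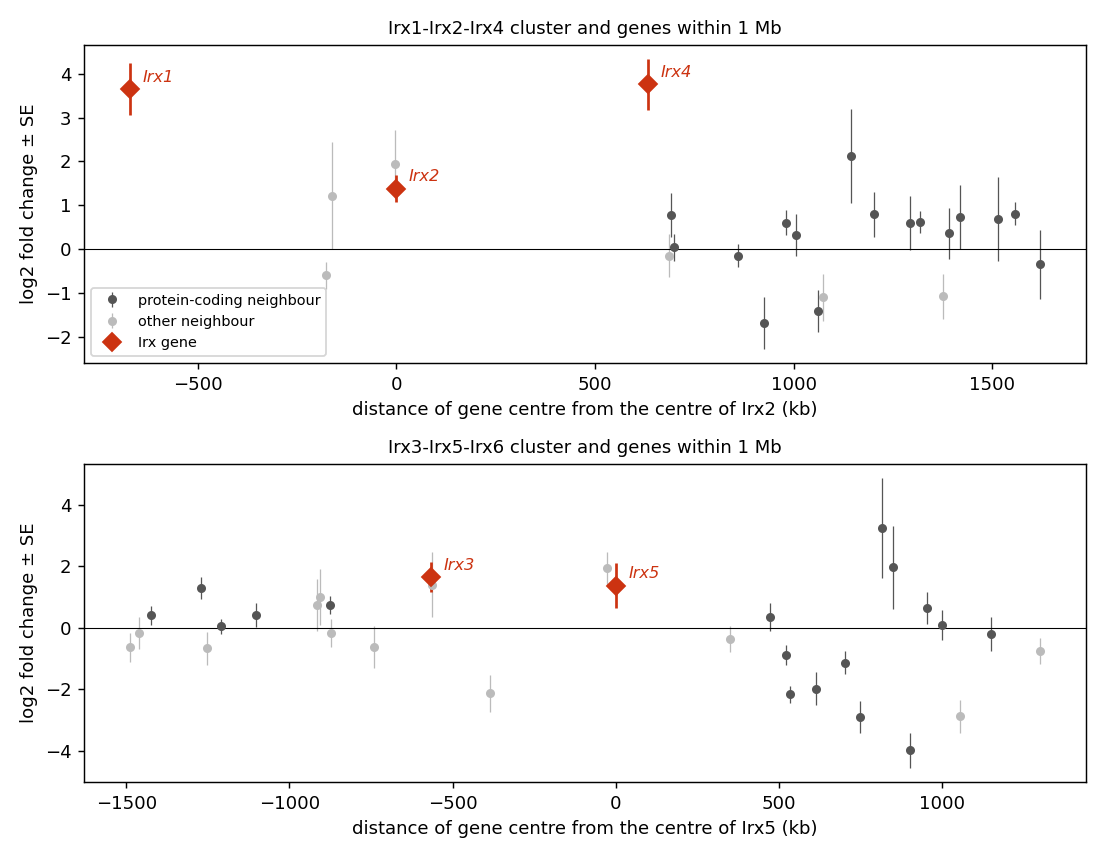
Log2 fold change with its standard error for the tested Irx genes (red diamonds) and the tested genes within 1 Mb of them (dots), by distance in kb from the centre of Irx2 (top) or Irx5 (bottom). Irx1 and Irx4, at 3.65 and 3.76, lie above every neighbour in the upper panel, whose highest is 2.13, and Irx2 lies below that neighbour at 1.38. In the lower panel Irx3 and Irx5, at 1.64 and 1.37, lie below the highest neighbour, at 3.24.

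Around Irx1, Irx2 and Irx4 the nearest coding genes gave no common direction. Ndufs6, a subunit of respiratory complex I that lies 50 kb from Irx4, was at 43.7 and 36.9 CPM in control cells, 99.8 CPM in library 3 and 37.4 CPM in library 4. Mrpl36, a mitochondrial ribosomal protein, was at 47.4 and 34.1 CPM against 36.5 and 47.1 CPM, so the groups overlapped for both genes. The acyltransferase Lpcat1, 198 kb from Irx4, was at 30.9 and 30.8 CPM against 27 and 28.5 CPM (log2 fold change -0.15, SE 0.269, edgeR adjusted p = 0.724). Of 16 coding neighbours tested in this cluster, 4 lay above both controls and 3 below (background 26.9% and 33.1%), with log2 fold changes from -1.68 for the dopamine transporter Slc6a3 to 2.13 for the potassium-chloride cotransporter Slc12a7. Brd9, a chromatin reader 668 kb away, was at 36.1 and 32.4 CPM against 52.1 and 52.5 CPM (log2 fold change 0.61, SE 0.248, edgeR adjusted p = 0.208), and Tert, the telomerase catalytic subunit, at 3.57 and 4.76 CPM against 6.08 and 4.31 CPM. Slc12a7 was at 12.9 and 12.2 CPM in control cells, 101 CPM in library 3 and 8.9 CPM in library 4, so the high level is that of library 3 alone.

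Around Irx3, Irx5 and Irx6, 3 of 17 coding neighbours lay above both controls and 6 below, where 26.9% and 33.1% of all genes did. Fto, an RNA demethylase whose introns are known to hold enhancers of Irx3, lies 130 kb away and was at 30.4 and 29.8 CPM in control cells and 59.1 and 41.8 CPM in libraries 3 and 4 (log2 fold change 0.74, SE 0.292, edgeR adjusted p = 0.203). Rpgrip1l, a protein of the ciliary base next to Fto, was at 7.42 and 8.79 CPM against 11.1 and 10.6 CPM. On the Irx6 side, the matrix metalloproteinase Mmp2 was at 17.1 and 16.3 CPM against 29.5 and 13.3 CPM. The calpain subunit Capns2, 220 kb from Irx6, was at 101 and 90.1 CPM against 18.9 and 23.9 CPM (log2 fold change -2.16, SE 0.273), with an edgeR adjusted p of 0.166. The acyltransferase Lpcat2 and the noradrenaline transporter Slc6a2 were at log2 fold changes of -0.89 and -1.98 (SE 0.327 and 0.536), with edgeR adjusted p of 0.19 and 0.166. Rbl2, a relative of the retinoblastoma protein, had 1.28 (SE 0.355, edgeR adjusted p = 0.166). By DESeq2 the calls were Rbl2 (adjusted p = 0.0497) as higher, and Capns2 (adjusted p = 7.05e-05) and the carboxylesterase Ces1f (adjusted p = 4.21e-05) as lower. Rbl2 was singled out after its values were seen. Ces1f belongs to a row of Ces1 paralogs that lie 339 to 671 kb from Irx6. Whether reads were split among them was not tested. Log2 fold changes of the tested Ces1 paralogs ran from -3.98 for Ces1f to 3.24 for Ces1d. Ces1d was at 2.17 and 1.39 CPM in control cells, 33.2 CPM in library 3 and 0.726 CPM in library 4, so it was high in library 3 alone.

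Non-coding genes that were tested and lie beside Irx2, Irx3 and Irx5, chosen after their values were seen, were highest in library 3. Gm20554 lies 256 bases from Irx2 on the other strand and was at 1.19 and 1.61 CPM in control cells, 8.59 CPM in library 3 and 2.27 CPM in library 4. Crnde, 1505 bases from Irx5 on the other strand, was at 0.84 and 0.586 CPM against 3.42 and 2.08 CPM. Irx3os was at 1.82 and 1.54 CPM in control cells, 8.1 CPM in library 3 and 0.871 CPM in library 4. Both libraries lay above both controls for Gm20554 and Crnde but not for Irx3os. None passed the edgeR test (adjusted p = 0.206, 0.166 and 0.414). Gm40999, 1369 bases from Irx1, was too low to be tested, with 5 and 6 counts in control cells and 2 and 0 in libraries 3 and 4.

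The TALE relatives of the Irx proteins had no common direction. All 12 were tested, 5 lay above both controls and 2 below (against 26.9% and 33.1% of all genes tested), and the median log2 fold change was 0.36. None passed the edgeR test over all genes, and 4 had an unadjusted p under 0.05 (9.42% of all genes as higher and 15.2% as lower). Meis1, a cofactor of Hox proteins, was at 12.7 and 12.3 CPM in control cells and 59.4 and 63.8 CPM in the others, for a log2 fold change of 2.30 (SE 0.267, edgeR adjusted p = 0.166). Meis2, its close relative, was at 9.45 and 8.28 CPM against 40.2 and 18.5 CPM. Pbx4 had the opposite direction, at 3.36 and 2.71 CPM against 0.908 and 1.5 CPM. The edgeR adjusted p was 0.166 for Meis2 and 0.2 for Pbx4.

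Signals that act upstream of Irx genes in embryos were looked at through 3 lists, and again no gene passed the edgeR test over all genes. In the Hedgehog list 13 of 14 genes were tested, 5 lay above and 4 below, against 26.9% and 33.1% of all genes. The median log2 fold change was -0.05, and 3 had an unadjusted p under 0.05, which 9.42% of all genes had as higher and 15.2% as lower. The receptor Ptch1, itself a target of the pathway, was at 7.77 and 10.8 CPM against 19.8 and 23.3 CPM (edgeR adjusted p = 0.17), while the effector Gli1 was at 3.36 and 2.27 CPM against 1.33 and 4.06 CPM. The ligand Ihh was at 0.7 and 1.25 CPM against 0.349 and 0.0484 CPM, from 10 and 17 counts against 5 and 1. Among genes with a mean of 0.5 to 1 CPM, the range of Ihh, 69.5% lay below both controls. Smo, the signal transducer, was at 47.9 and 66 CPM against 84.1 and 136 CPM.

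In the BMP list 17 of 18 genes were tested, 4 lay above and 2 below, against 26.9% and 33.1% of all genes. The median was 0.25, and 2 had an unadjusted p under 0.05, which 9.42% of all genes had as higher and 15.2% as lower. Id2, a BMP-responsive inhibitor of helix-loop-helix factors, was at 17.8 and 21.4 CPM against 37.9 and 54.4 CPM (edgeR adjusted p = 0.166). The BMP antagonist Grem1 was at 3.85 and 3.59 CPM against 6.98 and 12.9 CPM, and the ligand Bmp7 at 51.1 and 44.9 CPM against 29.1 and 39 CPM. In the FGF list all 14 were tested, 2 lay above and 3 below, again with 26.9% and 33.1% as the background (median 0.24, 2 with an unadjusted p under 0.05). The feedback inhibitor Spred2 was at 16.4 and 18.9 CPM against 28.6 and 55.6 CPM, and Spry2, another one, at 40.7 and 46.7 CPM against 29.4 and 30 CPM. The ligand Fgf8 was at 1.26 and 1.17 CPM against 0.489 and 0.0968 CPM, from 18 and 16 counts against 7 and 2. Among genes with a mean of 0.5 to 1 CPM, the range of Fgf8, 69.5% lay below both controls.

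Genes known as targets or partners of Irx proteins, mostly from the heart, differed mostly between libraries 3 and 4. Of 12, 11 were tested, 1 lay above both controls and 3 below (background 26.9% and 33.1%), and the median log2 fold change was 0.17. Smyd1, a methyltransferase of heart and muscle, was at 1.89 and 2.27 CPM in control cells, then 114 CPM in library 3 and 1.11 CPM in library 4. It was high in library 3 alone, which holds the heart transcripts. Cxcl12, a chemokine, was at 2.94 and 2.2 CPM against 55.9 and 5.52 CPM. Gja5, the connexin of the conduction system, was at 3.64 and 2.71 CPM against 1.68 and 1.45 CPM. None passed the edgeR test, and 1 had an unadjusted p under 0.05. Over all 5 lists 67 genes were tested, and an unadjusted p under 0.05 was found for 9 higher and 3 lower ones (9.42% and 15.2% of all genes). DESeq2 called Meis1, Meis2 and Cxcl12 higher and none lower (4.36% and 1.52% of all genes with a DESeq2 adjusted p).

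Markers of other cells were set beside the Irx genes, since fewer cells of a type and less RNA per cell cannot be told apart in bulk RNA. All 20 cardiomyocyte markers were in the file and 19 were tested. Their summed level was 92.7 and 112 CPM in control cells, 23200 CPM in library 3 and 71.6 CPM in library 4, where Nkx2-5 had 0 counts. The 12 salivary markers summed to 11.7 and 9.59 CPM, 403000 CPM and 29.2 CPM, with Dcpp1 and Dcpp2 at 0 in both libraries labelled Otub2 knockout. Mucl2 made up most of the sum in libraries 3 and 4, at 381000 and 16.8 CPM. In library 4 Irx4 was 8.06-fold and Irx1 15.3-fold above the mean of the controls. The cardiomyocyte sum of library 4 lay below both controls, and most of it was Nppb at 28.2 CPM and Tnnt2 at 22.4 CPM. The median tested marker was at -1.09 relative to the controls on the log2 scale. Csrp3 was above both controls in library 4, at 2.9 CPM against 0.35 and 0.22 CPM. So was Tnnc1, at 2.13 CPM against 1.26 and 0.293 CPM. Myh6, the cardiac alpha myosin, was at 3.71 and 4.39 CPM in control cells, 9390 CPM in library 3 and 0.436 CPM in library 4. Irx4 was 19.2-fold above the mean of the controls in library 3. The part of heart transcripts in the added Irx levels of libraries 3 and 4 was not tested.

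The summed level of fibroblast markers was higher beside the Irx genes in both libraries. The 14 fibroblast markers, none at 0 in any library, summed to 212 and 252 CPM in control cells and to 837 and 568 CPM in libraries 3 and 4. Of the 14, 10 lay above both controls (background 26.9%). The share was 47.3% among genes of 10 to 50 CPM and 40.3% among those over 50 CPM. Dcn and Pdgfra were above the controls in library 3 alone, at 169 and 32.1 CPM against 11 and 7.07 CPM in library 4, and Twist1 was below both controls in both, at 2.51 and 3.68 CPM against 6.72 and 6.01 CPM. Col1a1 was at 44.4 and 49.3 CPM against 108 and 164 CPM. The 8 markers of smooth muscle and pericytes summed to 90.6 and 84.7 CPM against 1050 and 188 CPM. In library 3 this sum was mostly Des, at 645 CPM. Of the 7 tested, 4 lay above both controls and 0 below (background 26.9% and 33.1%). In library 4 Cnn1 was at 1.06 CPM against 3.01 and 2.86 CPM in control cells, and Myh11 at 4.11 CPM against 3.85 and 4.25 CPM. The part of fibroblasts, smooth muscle and pericytes in the Irx levels was not tested. The 8 endothelial markers summed to 89 and 76.8 CPM, then 298 and 81.6 CPM. The 8 leukocyte markers summed to 81.6 and 76 CPM against 154 and 77.2 CPM, the 8 of nerve and Schwann cells to 192 and 186 CPM against 166 and 212 CPM, and the 6 of melanocytes to 8.96 and 6.15 CPM against 19.9 and 6.15 CPM. The 10 of skeletal muscle summed to 17.8 and 17.4 CPM against 425 and 56.2 CPM. In library 3 this sum was mostly Ckm at 290 CPM and Acta1 at 130 CPM, and the median tested member was at -1.08 relative to the controls on the log2 scale. None of the keratinocyte markers lay above both controls and 11 of 17 lay below, against 26.9% and 33.1% of all genes. Among genes over 50 CPM, the range of these markers, the shares were 40.3% and 15.4%.

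**Figure D5:**
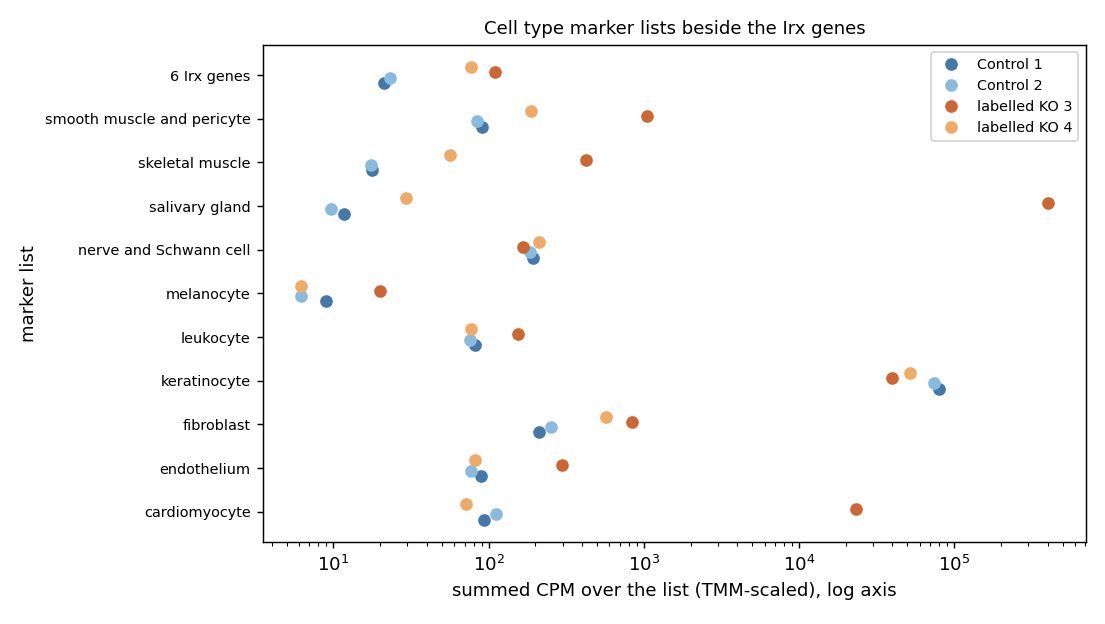
Summed TMM-scaled CPM of each marker list and of the 6 Irx genes in each library, on a log axis; points are single libraries. The salivary and cardiomyocyte sums set library 3 apart, fibroblast markers are above both controls in both libraries labelled Otub2 knockout, and the Irx sum is 110 and 77.3 CPM there against 21.1 and 23.4 CPM.

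For each tested Irx gene the most similar profiles were sought, by the Euclidean distance between log2 CPM centred over the 4 libraries, among up to 11209 genes of at least 5 CPM. With 4 libraries many genes have nearly the same profile, and the distances are a description. Irx1 was nearest to the zinc finger gene Zfp275 (distance 0.54), Mmp10 (0.857) and the basement membrane collagen Col4a6 (0.927). Zfp275 was at 0.56 and 0.952 CPM in control cells and 9.15 and 19.1 CPM in libraries 3 and 4. Irx4 was nearest to Bpifa2 (0.386), a salivary secretory protein, Sorbs2 (0.474), an adaptor abundant in heart, and Cyp2f2 (0.547). Bpifa2 was at 0.56 and 0.732 CPM against 12.5 and 7.31 CPM. Profiles close to Irx2 were common, with Pcnt at 0.0127, Sec61a1 at 0.0745 and Utrn at 0.0896. Irx3 was nearest to Fgfrl1 (0.0451), Rmnd1 (0.115) and Rdh5 (0.119). Irx5 was nearest to Echs1 (0.0687), Steap3 (0.102) and the endothelial marker Pecam1 (0.111), which was at 20.7 and 16.6 CPM in control cells, 75.3 CPM in library 3 and 21.5 CPM in library 4. Among the members themselves Irx2 and Irx3 were the closest pair (0.596), followed by Irx3 and Irx5 (0.761), while Irx1 and Irx5 were the farthest apart (3.11).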

How the data were processed

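Total RNA of 4 libraries was sequenced. The authors deposited a raw read count and an FPKM value per gene and library, per the file headers. These FPKM are the count over a gene length and the column total (largest relative error 7.1e-15 among genes with over 200 counts in every library). HISAT2, DESeq and GRCh38, a human build, are named in the submitters' processing notes, whereas the IDs are mouse Ensembl IDs; 54409 of 54446 were found in GENCODE release 21 (GRCm38). The 14785 features without a gene name, 2.84%, 2.82%, 1.29% and 0.914% of counts, were left out. Columns headed OE were matched to the knockout titles by number; 0 columns were left unused.

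Counts were tested with edgeR 4.0.16 (R 4.3.3, quasi-likelihood F-test, TMM, filterByExpr, Benjamini-Hochberg at 0.05 over 21916 genes). The test was first tried on counts simulated with the same set spread for all genes, which does not show its power on these libraries. Standard errors come from the F statistic. DESeq2 1.42.0, other scalings and filters, and leaving out each library were the alternatives. P-values set the difference between the groups against the spread of these samples, and either may have technical reasons. The 2 libraries per group limit the precision of the p-values. Poisson intervals cover counting error only. Members and lists were chosen with earlier results of these data known. Named were the Irx genes, coding neighbours from among the 12 nearest tested ones per cluster, and up to 4 genes per pathway list by p. Also named were up to 3 genes per marker list by level and the 3 nearest profiles per Irx gene. Others are given as examples of a list. Some neighbours and some genes of the pathway lists are counted but not reported by name here.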

Additional observations from a re-analysis of the deposited data

How the results depend on the processing

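None of the 5 tested Irx genes changed sign under any of the 10 alternatives. With library size only, the log2 fold change was 0.92 for Irx2 and 1.09 for Irx3, with upper-quartile factors 0.92 and 1.17, and with unnamed features kept 1.64 for Irx2. Leaving out 1 library at a time gave 3.22 to 4.31 for Irx1, 1.27 to 1.54 for Irx2, 1.17 to 2.01 for Irx3, 3.03 to 4.25 for Irx4 and 0.28 to 1.99 for Irx5, whose lowest value is that without library 3. With library size only, upper-quartile factors or a mean CPM of at least 1, Irx5 in library 4 was not above both controls. On the column total, a scale added after seeing the data, 2 in place of 4 Irx genes were at least 2-fold above both controls and 1 in place of 2 at least 4-fold. Genes called by edgeR numbered 0 higher and 0 lower as reported, 37 and 1433 with library size only, and 6 and 3 with no filter. DESeq2 called 751 higher and 262 lower, and the cause of these differences was not tested. Leaving out 1 library gave 0 to 5243 higher and 0 to 5097 lower, with 4359 and 5097 without library 3 and 5243 and 2961 without library 4, where the remaining library is taken to vary like the controls. Among the neighbours, library size only called 5 lower and DESeq2 1 higher and 2 lower, and leaving out 1 library 0 to 18 higher and 0 to 16 lower. Among the pathway lists, library size only called 2 lower and DESeq2 3 higher, and leaving out 1 library 0 to 20 higher and 0 to 8 lower. No paired analysis was possible because the groups share no replicate number. Counts of 11 and 22 limit the control level of Irx1, and Irx6 is below what this depth can compare.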

Other observations

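Other homeobox genes, taken after the values were seen as the protein-coding genes whose deposited description holds the word homeobox, were also compared between the groups. Of 219 in the file 138 were tested, and both libraries labelled Otub2 knockout lay above both controls for 17 and below for 87 (26.9% and 33.1% of all genes), with a median log2 fold change of -1.16. Over all tested genes of 1 to 2 CPM the median was -0.70. Among the 63 with a mean of at least 2 CPM, 16 lay above (25.4%) and 25 below (39.7%), against 37.9% and 16.6% of all 14546 genes at that level. The median of the 63 was 0.09, against 0.36 for all genes of that level. The -1.16 also takes in the genes of the list below 2 CPM, which were not compared at a matched level. Only 1 of the 138 had a larger log2 fold change than Irx1 or Irx4. It was Six2, a regulator of progenitor cells in the kidney and palate, at 0.28 and 0.293 CPM in control cells, 15.5 CPM in library 3 and 0.968 CPM in library 4.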
